A study of Gallus gallus with 9 samples.

Results

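Solute carriers are membrane proteins that move nutrients, metabolites and ions across the plasma membrane and the membranes of organelles, each family with its own kind of cargo. A cell that turns to fat storage needs glucose, amino acids and carnitine from outside, and its mitochondria need carriers that pass ADP, ATP, phosphate, citrate and acylcarnitines through their inner membrane. In cultured fat cell precursors this family is followed mostly through the glucose transporters and the carriers of fatty acids.

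The genes described here are those whose symbol on the chicken array starts with SLC, organic anion carriers of the SLCO branch included, and whose probe set averaged at least 5 on the log2 scale over the 9 arrays. They number 93 of the 295 solute carrier genes measured, among 13009 genes with a single symbol, of which 5906 reached the same level. For a gene with several probe sets, the brightest on average was used. Members were thus chosen by their mean level, and that level is a description only. The members nearest above the limit were SLC35D1, SLC10A4 and SLC9A9, with means of 5.01, 5.05 and 5.07 log2, and SLC12A2, SLC20A2 and SLC25A28 stayed just outside it at 4.98, 4.90 and 4.81. Of the 93, 90 code for carriers. The other 3, SLC9A3R2, SLC7A6OS and SLC4A1AP, are named after a carrier that their product binds or that their gene adjoins.

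Preadipocytes came from abdominal fat of laying hens of the Lohman strain, 19 wk old, and were kept for 96 hr after confluence. Cells of the control group received no cocktail. The DMIOA group received 500 nM dexamethasone, a synthetic glucocorticoid, 0.5 mM 3-isobutyl-1-methylxanthine, which slows the breakdown of cyclic AMP, 300 μM oleic acid and insulin at 20 μg/mL. The DMIOA+20(S) group received the same with 5 μM 20(S)-hydroxycholesterol, an oxysterol. All 9 cultures grew in medium with fetal bovine serum, and 3 arrays carry the title of each group. They are called biological replicates, but no source links a given array with its hen or dish, so every p-value below measures the spread between these arrays, and 3 arrays a group limit the precision. The values come from whole cultures, so fewer cells of one type and less RNA per cell cannot be told apart.

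The titles and the likeness of the arrays disagreed. Over all 38439 probe sets the arrays were put into 3 sets by likeness. Set A held control 1, control 2 and DMIOA 1, set B held DMIOA 2, DMIOA+20(S) 1 and DMIOA+20(S) 2, and set C held the 3 arrays titled replicate 3, control 3, DMIOA 3 and DMIOA+20(S) 3. Correlations over these probe sets, which are no independent replicates of one another, ran from 0.993 to 0.997 within sets and from 0.970 to 0.976 between set A and the others. Sets B and C lay close together, at 0.989 to 0.995. DMIOA+20(S) 2 of set B and DMIOA+20(S) 3 of set C were each other's nearest array, so likeness does not divide B from C cleanly. Without the solute carrier probe sets, every array had the same nearest neighbour. Between 2 arrays of a set, the 93 genes differed by a median of 0.07 to 0.19 log2, against 0.39 to 0.47 between sets A and B, 0.39 to 0.45 between A and C, and 0.15 to 0.27 between B and C. The sets carry no treatment of their own and were drawn from the same arrays, these genes included, so they are shown as values and counts without a test.

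The level of the 93 genes ran from 5.01 to 13.27 log2 with a median of 7.88. A mean of 8 or more was reached by 43 genes and a mean of 10 or more by 12. These are brightnesses of different probes, so they do not rank the amounts of transcript. The difference between the brightest and the dimmest array had a median of 0.81 log2 over the members and 0.71 over the 5906 genes of that level. It was at least 1 for 33 members (35.5%, against 30.6% of all) and under 0.5 for 19 (20.4%, against 29.2%). The least variable were SLC25A3, the mitochondrial phosphate carrier, which lay between 12.42 and 12.53 on all 9 arrays, and SLC35A1, which takes CMP-sialic acid into the Golgi, between 7.30 and 7.42. By cargo, the SLC25 family, mostly carriers of the mitochondrial inner membrane, gave the most members, 22 of 33 measured. It was followed by the SLC35 family of nucleotide sugar carriers with 15 of 24, amino acid carriers with 13 of 38 and zinc carriers with 8 of 18. Carriers of ions and protons gave 7 of 49 and sugar carriers 7 of 25. Fewer members came from vitamin, choline and carnitine carriers (5 of 16), from carriers of other metals and heme (4 of 8), from monocarboxylate carriers (3 of 13), from the organic anion and bile acid families (2 of 27) and from vesicular and neurotransmitter carriers (2 of 17). Fatty acid carriers gave 1 of 4, SLC33A1 was the single acetyl-CoA carrier, and carriers of nucleosides, peptides, and sulfate and dicarboxylates gave 0.

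**Figure D1:**
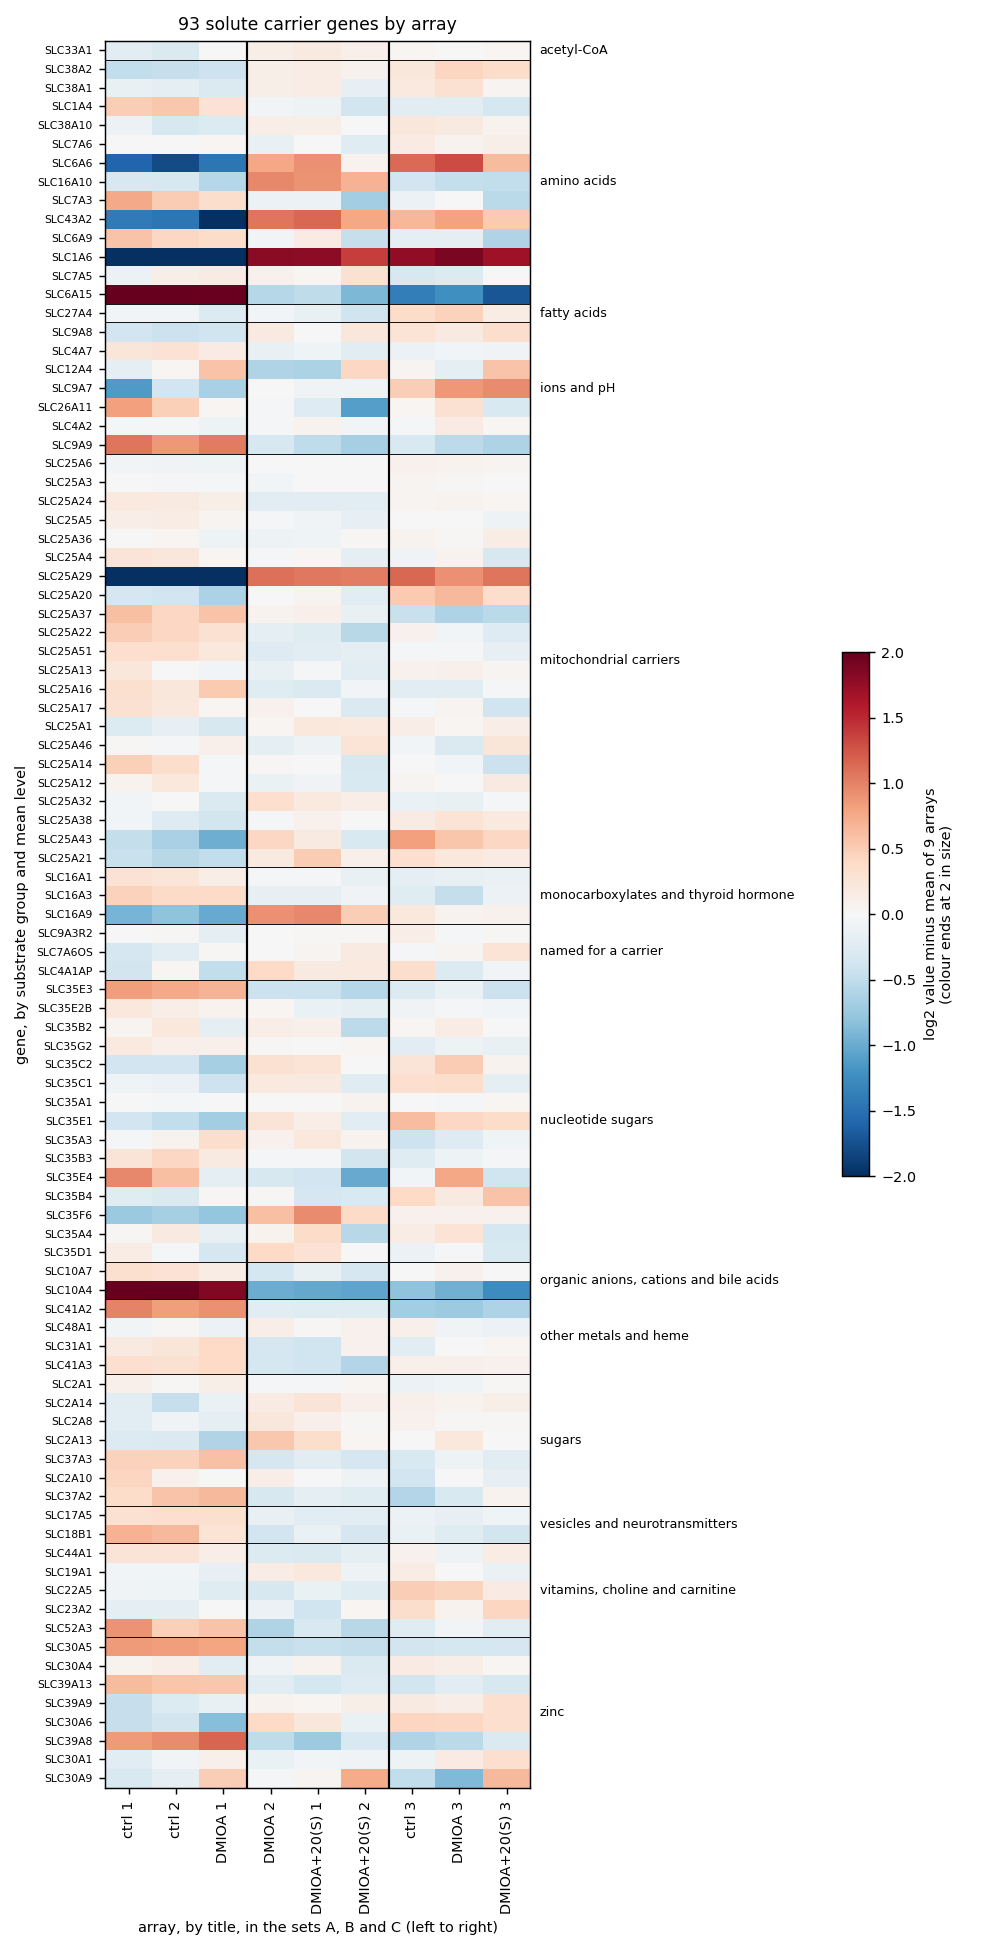
Each row is 1 of the 93 solute carrier genes, grouped by cargo and ordered by mean level, and each column is 1 array, ordered by sets A, B and C. Colour gives the log2 value minus the gene's mean over the 9 arrays and ends at 2 in size. SLC1A6, SLC25A29, SLC43A2 and SLC6A6 were dim on the 3 left columns, SLC6A15 and SLC10A4 were bright there, and most other rows stayed pale.

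Among the amino acid carriers the widest differences of all members were found. SLC1A6, a glutamate and aspartate transporter known in mammals from cerebellar neurons, measured 3.92, 4.19 and 4.12 log2 on control 1, control 2 and DMIOA 1. On DMIOA 2, DMIOA+20(S) 1 and DMIOA+20(S) 2 it measured 9.33, 9.31 and 8.90, and on control 3, DMIOA 3 and DMIOA+20(S) 3 it measured 9.29, 9.40 and 9.21. The 3 arrays of set A lay below the other 6 with no overlap, although each titled group held low and high arrays except DMIOA+20(S), which held high ones only. In the same order of arrays, which is kept from here on (set A, then B, then C), SLC43A2, which lets large neutral amino acids through in both directions, gave 6.39, 6.35 and 5.66, then 8.87, 8.94 and 8.57, then 8.47, 8.61 and 8.33 log2. SLC6A6, the taurine transporter, gave 7.07, 6.86 and 7.20, then 9.43, 9.56 and 8.72, then 9.79, 9.95 and 9.28. Both were low on the arrays of set A and high on all others. The opposite was seen for SLC6A15, a sodium-coupled carrier of branched neutral amino acids and proline, with 7.37, 7.15 and 7.06, then 4.51, 4.57 and 4.18, then 3.70, 3.85 and 3.37 log2. Its arrays of set C were also below those of set B, by a gap smaller than 1. SLC6A15 lay below 5 on every array outside set A and passed the limit, at a mean of 5.08, only through set A.

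Other amino acid carriers moved less. SLC38A2 and SLC38A1, which take up small neutral amino acids with sodium, had means of 12.16 and 11.79 log2. SLC38A2 was lowest on set A (11.67, 11.70 and 11.74) and lay between 12.24 and 12.59 on the other 6. Its other probe set with a mean above 5 overlapped, with 5.26, 4.98 and 6.56 on set A beside 5.49 to 7.41. SLC1A4, which exchanges alanine, serine and cysteine, was highest on set A (10.84, 10.88 and 10.64) and lay between 9.98 and 10.29 elsewhere. SLC7A3, a carrier of arginine and lysine, gave 8.63, 8.39 and 8.23, then 7.75, 7.75 and 7.18, then 7.75, 7.86 and 7.33. Set A was thus above B and C for SLC1A4 and SLC7A3, by gaps under 0.5. SLC6A9, a glycine transporter, measured 8.10, 7.95 and 7.89 on set A and 6.92 to 7.69 on the others. SLC7A5 and SLC7A6, which carry large neutral and basic amino acids as partners of the heavy chain SLC3A2, ranged over 0.62 and 0.41 log2. SLC3A2 itself had no probe set with a single symbol, so the pair could not be set side by side. SLC7A1 and SLC7A11, which bring in arginine and cystine, stayed near the dim end with means of 2.83 and 2.19.

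SLC16A10 was the only member on which set B lay above set C by 1 log2 or more. This carrier of aromatic amino acids, which also passes thyroid hormone, measured 7.63, 7.63 and 7.38 on set A, 8.90, 8.84 and 8.64 on set B, and 7.56, 7.47 and 7.45 on set C. The array titled DMIOA 2 was therefore high and DMIOA 1 and DMIOA 3 were low, and DMIOA+20(S) 3 was low beside the high DMIOA+20(S) 1 and 2. A gap of this size in this direction was found for 0.389% of the 5906 genes. In the other direction, C above B, no member was found, against 0.491% of all.

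Of the 22 SLC25 carriers, SLC25A29 and SLC25A21 stood apart on set A by at least 0.5 log2 from every other array. SLC25A29, which carries arginine, lysine and ornithine into mitochondria, gave 7.55, 7.44 and 7.57, then 10.72, 10.68 and 10.64, then 10.77, 10.54 and 10.70. SLC25A21, which carries oxodicarboxylates, gave 5.64, 5.53 and 5.59, then 6.26, 6.59 and 6.19, then 6.42, 6.30 and 6.25. Both were low on set A alone. Carriers that serve energy supply differed little between arrays. SLC25A6, SLC25A5 and SLC25A4, which exchange ADP for ATP, ranged over 0.18, 0.30 and 0.58 log2 at means of 13.27, 10.51 and 9.77. SLC25A24, which moves ATP-magnesium against phosphate, lay between 10.72 and 11.14. The family members that handle fuel went different ways. SLC25A20, which brings acylcarnitines to beta-oxidation, gave 9.23, 9.17 and 8.92, then 9.55, 9.62 and 9.33, then 10.09, 10.21 and 9.91. On this probe set the sets followed each other without overlap. Its other probe set with a mean above 5 did not keep that order. There set A lay above set B, with 6.17, 6.33 and 6.06 beside 5.83, 5.85 and 5.24, and set C overlapped set A. SLC25A1, which exports citrate for fatty acid synthesis, lay at 7.42, 7.54 and 7.38 on set A and between 7.73 and 7.91 elsewhere. A second SLC25A1 probe set with a mean above 5 overlapped, with 5.52, 5.41 and 5.35 on set A beside 5.34 to 5.99. SLC25A22, a glutamate carrier, was highest on set A with 9.68, 9.59 and 9.48, and lay between 8.63 and 9.27 elsewhere. SLC25A37, the iron importer mitoferrin, gave 9.83, 9.64 and 9.79, then 9.30, 9.32 and 9.08, then 8.78, 8.60 and 8.69, again with sets in order and no overlap. SLC25A43, whose cargo is not established, gave 5.93, 5.76 and 5.43, then 6.82, 6.58 and 6.10, then 7.23, 6.96 and 6.82.

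Of the 8 zinc carriers 3, SLC30A5, SLC39A13 and SLC39A8, lay above all other arrays on set A by at least 0.5, and 0 lay below, where 9.63% of the 5906 genes lay above and 7.62% below. The 3 include SLC30A5, which ran the opposite way on its other probe set. SLC30A5, which fills the early secretory pathway with zinc, gave 12.20, 12.18 and 12.13, then 10.86, 10.89 and 10.86, then 10.97, 10.99 and 11.00. SLC39A8, an importer of zinc and manganese, gave 8.04, 8.14 and 8.35, then 6.68, 6.46 and 6.89, then 6.58, 6.65 and 6.90. SLC39A13, a zinc carrier of the early secretory pathway, lay at 10.19, 10.11 and 10.09 on set A and between 9.19 and 9.33 on the rest. All 3 were high on control 1, control 2 and DMIOA 1 and lower on the other 6 arrays, whatever their title. SLC30A6, which works in the Golgi, was lower on set A instead, with 6.89, 6.98 and 6.50 beside 7.21 to 7.78. On its other probe set with a mean above 5 the sets overlapped, with 5.51, 5.96 and 6.44 beside 5.95 to 6.90. SLC30A4, a zinc carrier of vesicles, lay between 9.87 and 10.32 with the sets overlapping. Among other metal carriers, SLC41A2, a magnesium transporter, gave 10.95, 10.79 and 10.86, then 9.72, 9.71 and 9.71, then 9.25, 9.23 and 9.33. SLC48A1, which passes heme, varied by 0.26 in all.

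Carriers of ions and of bile acids held further genes of both kinds. SLC10A4, an orphan member of the bile acid carrier family found on synaptic vesicles in mammals, gave 7.27, 7.09 and 6.90, then 4.06, 4.02 and 3.99, then 4.25, 4.08 and 3.79. SLC9A9, a sodium-proton exchanger of endosomes, gave 6.14, 5.93 and 6.11, then 4.75, 4.56 and 4.40, then 4.76, 4.54 and 4.45. Both were high on set A only and lay below 5 elsewhere, and both entered the list just above its limit. SLC9A7, the corresponding exchanger of the trans-Golgi, gave 5.09, 5.84 and 5.57, then 6.21, 6.15 and 6.15, then 6.72, 7.09 and 7.16, so that A was lowest and C highest without overlap. SLC9A8, another Golgi exchanger, was at 9.59, 9.53 and 9.57 on set A and between 9.97 and 10.31 elsewhere. SLC4A2, an exchanger of chloride for bicarbonate, ranged over 0.28 only.

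The 7 sugar carriers had a median range of 0.81 log2, as the 93 genes did, and held steady and uneven genes. SLC2A1, the basal glucose transporter GLUT1, gave 11.96, 11.87 and 11.97, then 11.81, 11.81 and 11.89, then 11.73, 11.76 and 11.87, a range of 0.25. SLC2A14, by its array symbol a transporter of the same class, gave 9.26, 9.01 and 9.33 on set A and 9.53 to 9.73 elsewhere. SLC2A8, an intracellular hexose carrier, ranged over 0.44. SLC2A13, a carrier of myo-inositol, lay between 7.58 and 8.72, and SLC37A2, a sugar phosphate exchanger, between 4.49 and 5.73. Of 7 members of this group, SLC37A3, of the sugar phosphate exchanger family, was the one that stood apart by 0.5, with 7.68, 7.68 and 7.80 on set A beside 6.87 to 7.11. The monocarboxylate carriers SLC16A1 and SLC16A3, which take lactate through the plasma membrane with the chaperone BSG, lay between 8.88 and 9.35 and between 8.29 and 9.23. BSG was at 11.22, 11.13 and 11.47 on set A and between 11.94 and 12.15 on the other 6 arrays, so the chaperone was lower where both carriers were higher. SLC16A9, a less studied member of that family, gave 4.40, 4.53 and 4.33, then 6.25, 6.30 and 5.82, then 5.55, 5.40 and 5.42, with set B on top.

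In the remaining groups most members were quiet. Of the 15 SLC35 genes, SLC35E3, an orphan, was high on set A (10.92, 10.83 and 10.76, then 9.64, 9.65 and 9.51, then 9.80, 9.94 and 9.64). SLC35F6, a lysosomal protein, was low there (4.47, 4.54 and 4.44, then 5.82, 6.16 and 5.59, then 5.29, 5.29 and 5.29). SLC35E4, also an orphan, gave 6.40, 6.05 and 5.25, then 5.13, 5.06 and 4.43, then 5.39, 6.22 and 5.05, with set B below set A and set C overlapping both. SLC52A3, a riboflavin transporter, gave 6.42, 5.99 and 6.09 on set A and 4.92 to 5.46 elsewhere. SLC22A5, the carnitine importer, measured 8.98, 8.94 and 8.66 on set C and 8.17 to 8.43 on the others, and SLC27A4, which takes up long-chain fatty acids, measured 9.13, 9.23 and 8.91 beside 8.36 to 8.71. Both were highest on set C, but the other SLC27A4 probe set with a mean above 5 had sets that overlapped, with 5.77, 5.77 and 6.48 on set C beside 5.34 to 6.0. SLC44A1, a choline transporter, lay between 9.85 and 10.39. SLC33A1, which supplies acetyl-CoA to the endoplasmic reticulum, lay between 8.78 and 9.24, and SLC19A1, the reduced folate carrier, between 9.01 and 9.39.

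**Figure D2:**
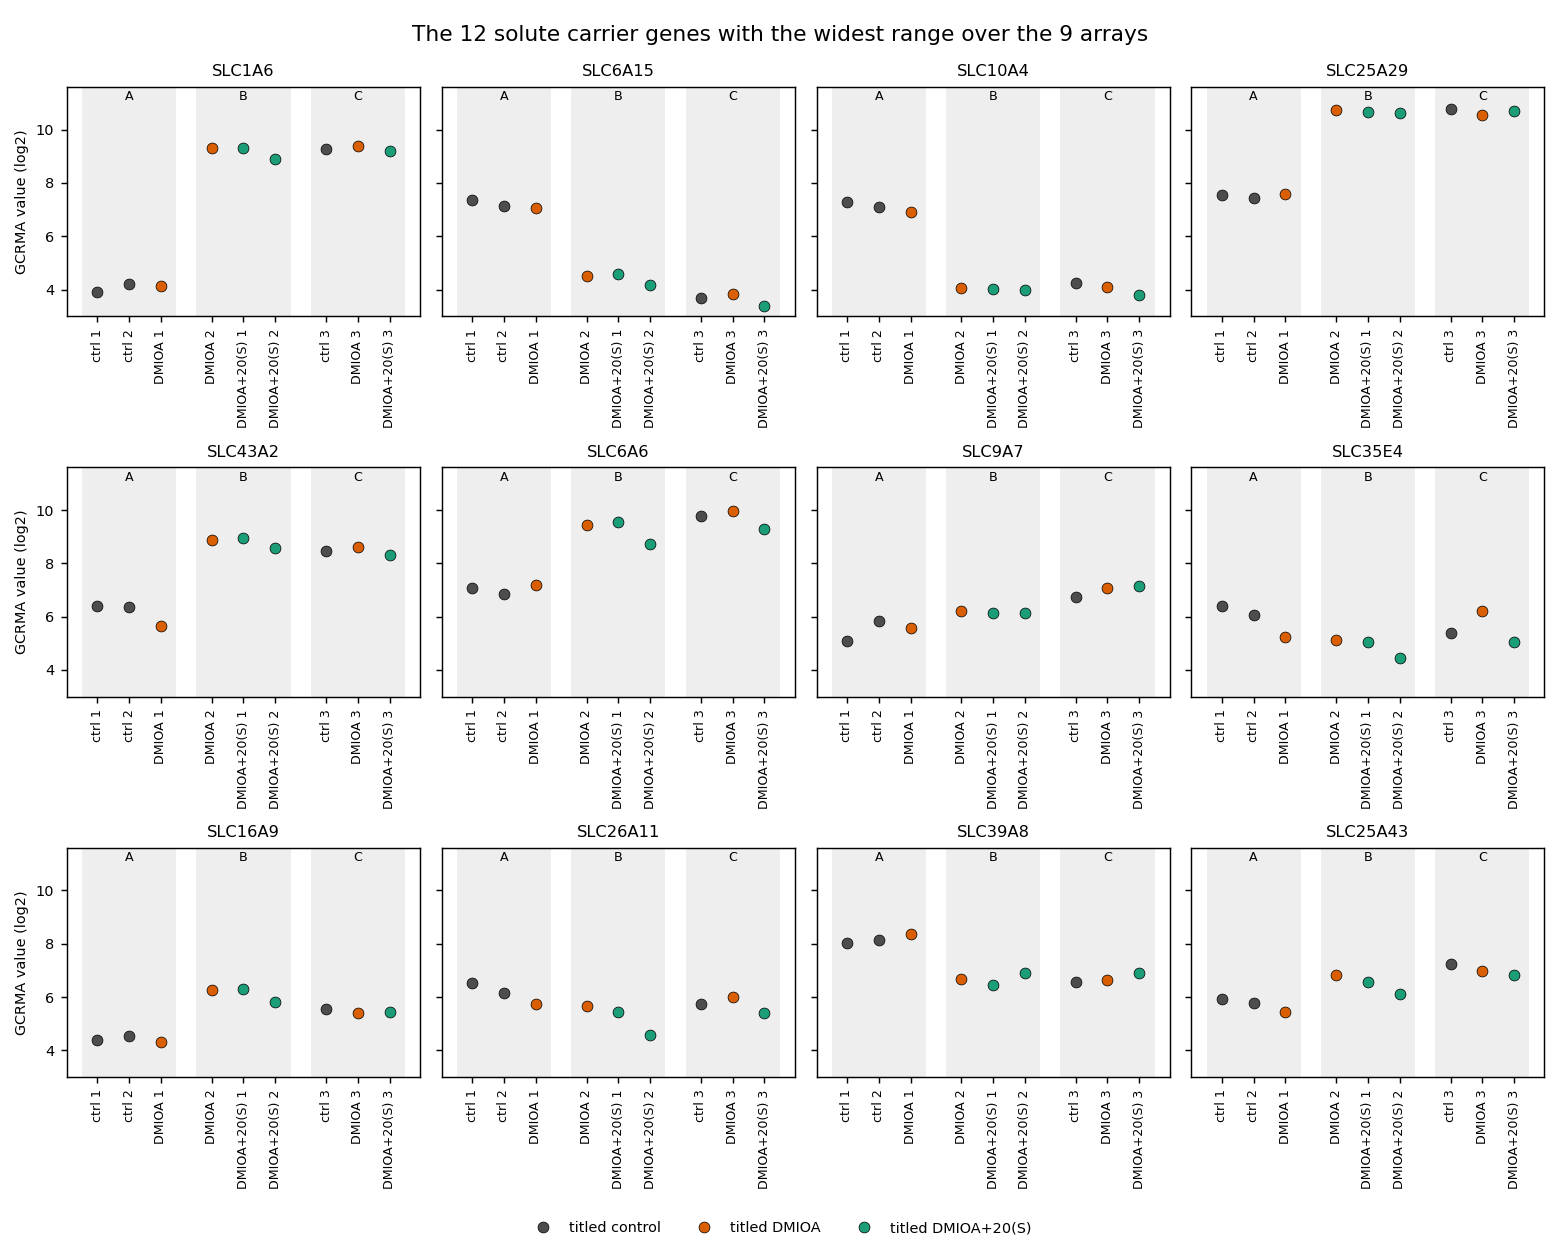
Each panel shows 1 of the 12 members with the widest range, with the log2 GCRMA value of every array on a common vertical axis, grey bands for sets A, B and C, and colours for the titled groups. SLC1A6 lay near 4 on set A and near 9 on sets B and C, while SLC6A15 and SLC10A4 lay near 7 on set A and at 4.57 or less elsewhere.

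Over the 93 genes, gaps of at least 1 log2 between sets were counted beside the same count over all genes of that level. Set A lay above set B for 7 members (7.53%), where 5.45% of the 5906 genes did, and below it for 7 (7.53%), where 4.52% did. Against set C, set A was above for 6 members (6.45%, background 5.32%) and below for 4 (4.30%, background 4.44%). Set A was apart from both others in the same direction for 6 members above, SLC10A4, SLC30A5, SLC39A8, SLC41A2, SLC6A15 and SLC9A9, and for 4 below, SLC1A6, SLC25A29, SLC43A2 and SLC6A6. Of the 6, SLC10A4, SLC6A15 and SLC9A9 lay below 5 on every array outside set A, so only set A brought them over the limit. Of the 4, SLC1A6 lay below 5 on set A. Over all genes of that level the shares were 4.13% and 3.62%, beside 6.45% and 4.30% of the members. With a gap of 0.5 the members were 10 above and 7 below, 10.8% and 7.53%, beside 9.63% and 7.62% of all. Of these 7, SLC16A9 and SLC35F6 also lay below 5 on set A, at 4.33 to 4.53 and 4.44 to 4.54. Only the arrays of sets B and C brought them over the limit. Both are also among the 7 members with set A below set B by 1. The members' shares were thus near those of all genes, and nothing particular to solute carriers is read from them.

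Within each set, 1 array differed from the other 2 on a shared list of members. DMIOA 1, DMIOA+20(S) 2 and DMIOA+20(S) 3 were each below both other arrays of their set for 30 members (32.3%), beside 30.2% of the 5906 genes, and each above for 11 (11.8%), beside 11.8% of all. The genes of this pattern were seen after the values were known. SLC30A9, which exports zinc from mitochondria, gave 5.39 and 5.50 beside 6.19 on set A, 5.65 and 5.75 beside 6.43 on set B, and 5.20 and 4.81 beside 6.34 on set C. SLC12A4, a potassium-chloride cotransporter that guards cell volume, gave 7.02 and 7.26 beside 7.79, then 6.62 and 6.59 beside 7.63, then 7.28 and 7.03 beside 7.80. For both genes those 3 arrays were the highest of the 9. SLC31A1, the copper importer, was also above on these arrays, with 8.18 in set A, 7.87 in set B and 7.83 in set C, but its set A lay highest as a whole. Another SLC31A1 probe set, of mean 7.34, had the opposite order, with 7.48 and 7.62 beside 7.06, then 7.33 and 7.31 beside 7.0, then 7.45 and 7.62 beside 7.22. In the other direction, SLC26A11, a sulfate and anion carrier, gave 6.51 and 6.16 beside 5.72, then 5.67 and 5.43 beside 4.59, then 5.72 and 6.0 beside 5.39. SLC7A3 and SLC35E4, whose values are given above, had the same order. The other SLC35E4 probe set of mean above 5 did not, with 4.33 and 4.56 beside 4.6 in set B and 5.24 and 5.37 beside 5.27 in set C. For the members of both patterns, the 9 other probe sets of that level of genes with the 3 arrays above gave the same order 3 times, the opposite 1 time and neither 5 times. The 17 of genes with the 3 arrays below gave the same 2 times, the opposite 6 times and neither 9 times. The order within sets thus often did not carry over to a second probe set of the gene. Of these 3 arrays 1 is titled DMIOA, 2 are titled DMIOA+20(S) and 0 control.

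**Figure D3:**
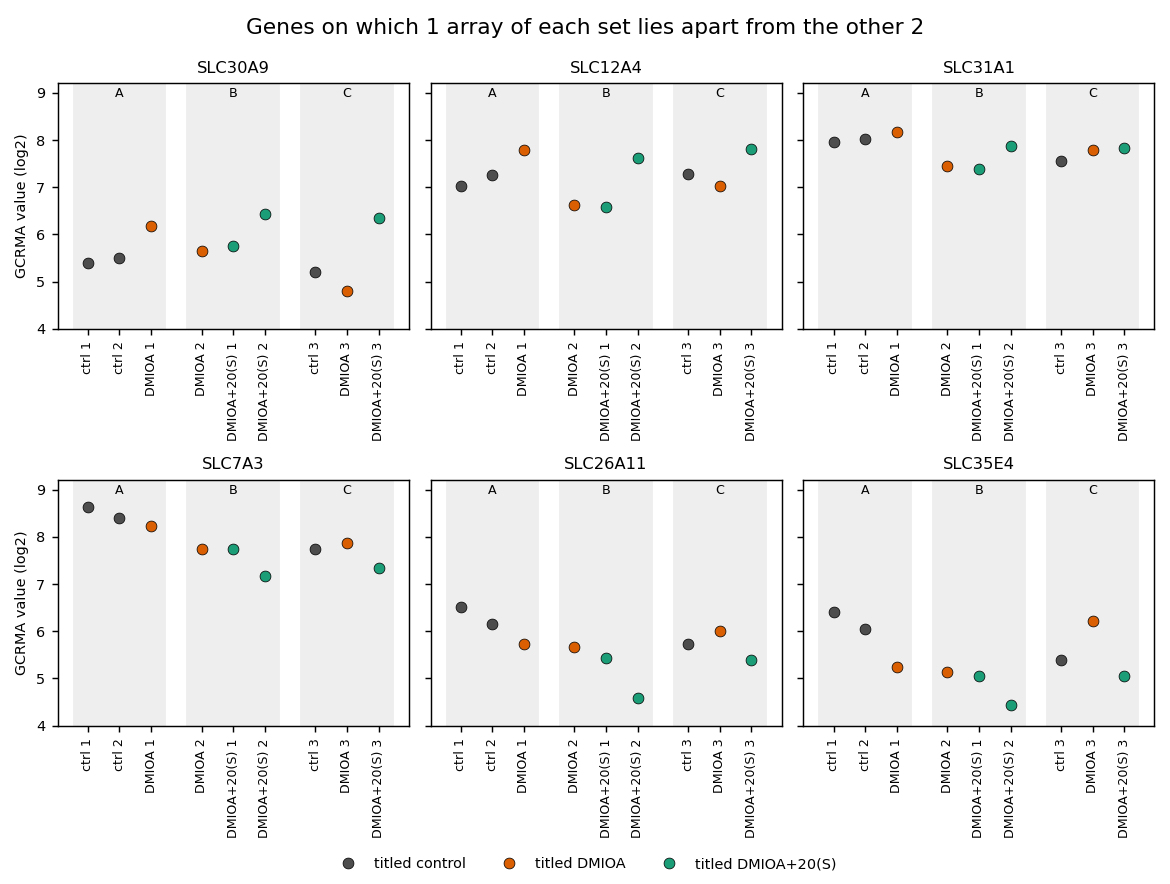
Log2 GCRMA values of 6 members on every array, with grey bands for sets A, B and C and colours for the titled groups. In the upper panels (SLC30A9, SLC12A4, SLC31A1) the third array of each band is the highest of its set, from 6.19 to 6.43 for SLC30A9, and in the lower panels (SLC7A3, SLC26A11, SLC35E4) it is the lowest.

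By title, the question of DMIOA against control is what the adipogenic cocktail changed. No solute carrier was called at an adjusted p under 0.05 with at least a 2-fold difference, and of all 38439 probe sets 0% were called (limma, Benjamini-Hochberg). At an unadjusted p under 0.05 there were 0 members, beside 0.83% of the 5906 genes and 905 probe sets in all. The methods' t-test after adjustment called 0 members too. Of the 93 genes 37 were higher and 56 lower on the arrays titled DMIOA, with a median of -0.05 log2 beside -0.01 over all 5906. SLC1A6 measured 5.80 ± 3.03 (SD, n = 3) on the control arrays and 7.62 ± 3.03 (SD, n = 3) on the DMIOA arrays, a log2 difference of 1.82 with a standard error of 1.73 (adjusted p = 0.994 from limma). The next largest differences upward were 1.02 for SLC25A29 (standard error 1.05), 0.95 for SLC6A6 (standard error 0.90) and 0.64 for SLC43A2 (standard error 0.88). Downward they were -1.20 for SLC10A4 (standard error 0.95), -0.94 for SLC6A15 (standard error 1.11), -0.52 for SLC18B1, a vesicular polyamine carrier (standard error 0.25), and -0.48 for SLC9A9 (standard error 0.46). All 93 had an adjusted p of at least 0.994, so none passed the test. Arrays did not overlap between the groups for SLC7A6OS, higher with DMIOA (0.914% of all genes of that level), and for SLC25A12, an aspartate-glutamate carrier, lower with DMIOA (1.86%).

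DMIOA+20(S) against DMIOA asks what the oxysterol added. Here too limma called 0 members and 0% of probe sets, with a smallest adjusted p of 0.977. At an unadjusted p under 0.05 there was 1 member (1.08%), SLC26A11, beside 1.96% of the 5906 genes and 1099 probe sets in all. It measured 5.79 ± 0.18 (SD, n = 3) on the DMIOA arrays and 5.14 ± 0.48 (SD, n = 3) on the DMIOA+20(S) arrays, a log2 difference of -0.66 (standard error 0.27, unadjusted p = 0.04, adjusted p = 0.977 from limma). Of the members 42 were higher and 51 lower, with a median of -0.03 beside -0.02 over all 5906 genes. The largest log2 differences upward were 1.53 for SLC1A6, 1.07 for SLC25A29, 0.90 for SLC43A2 and 0.63 for SLC30A9, and downward -1.10 for SLC6A15, -1.08 for SLC10A4, -0.68 for SLC35E4 and -0.66 for SLC9A9. The standard error was 0.33 for SLC30A9, 0.36 for SLC35E4 and 0.46 for SLC9A9. Groups did not overlap for 3 members higher with the oxysterol (SLC25A1, SLC35A1 and SLC9A3R2, 3.23% beside 2.4% of all) and for 10 lower (10.8% beside 3.83%). The 10 were SLC10A4, SLC25A17, SLC25A22, SLC25A5, SLC26A11, SLC2A10, SLC35E2B, SLC35E4, SLC39A13 and SLC7A3. Of these, 7 are also among the 30 members on which DMIOA 1, DMIOA+20(S) 2 and DMIOA+20(S) 3 were each lowest in their set. The part of that pattern in the count was not tested. Of the 10, SLC25A17, SLC35E4 and SLC39A13 had another probe set with a mean above 5, and on each the titled groups overlapped. With DMIOA and DMIOA+20(S), SLC25A17 gave 6.58 to 7.26 and 6.66 to 6.99 there. SLC35E4 gave 4.33 to 5.67 and 4.56 to 5.27, and SLC39A13 gave 5.66 to 6.54 and 5.47 to 5.99.

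DMIOA+20(S) against control compares the full treatment with none and shares its arrays with the 2 comparisons above. A difference of at least 2-fold was found for 9 members (9.68%, beside 8.28% of the 5906 genes). It was found for 3 members (3.23%, beside 2.05%) with DMIOA against control and for 4 (4.30%, beside 2.27%) with DMIOA+20(S) against DMIOA. All 3 arrays titled DMIOA+20(S) lie outside set A and 2 of 3 control arrays lie in it. Limma called 0 members and 2 of 38439 probe sets (0.0052%), neither of a solute carrier. SLC1A6 measured 9.14 ± 0.21 (SD, n = 3) with DMIOA+20(S) beside 5.80 ± 3.03 in control, a log2 difference of 3.34 (standard error 1.73, adjusted p = 0.508 from limma). SLC25A29 measured 10.67 ± 0.03 beside 8.59 ± 1.89 (SD, n = 3), a difference of 2.09 (standard error 1.05, adjusted p = 0.502). SLC43A2 and SLC6A6 were higher by 1.54 (standard error 0.88) and 1.28 (standard error 0.90). For all 4 genes control 3 lay among the DMIOA+20(S) values or above them, while control 1 and 2 lay below. SLC10A4 measured 3.93 ± 0.12 beside 6.20 ± 1.70 (SD, n = 3), a difference of -2.27 (standard error 0.95, adjusted p = 0.492). SLC6A15 was lower by 2.04 (standard error 1.11, adjusted p = 0.520), SLC9A9 by 1.14 (standard error 0.46) and SLC35E4 by 1.10 (standard error 0.36), the last 2 with an adjusted p of 0.492. At an unadjusted p under 0.05 there were 20 members (21.5%), 5 higher and 15 lower, beside 16.8% of the 5906 genes and 3880 probe sets in all. The members had a median of -0.07 beside -0.03 over all. Groups did not overlap for 3 members higher, SLC30A9, SLC35A1 and SLC7A6OS (3.23% beside 6.77%), and for 11 lower (11.8% beside 12.2%). The 11 include SLC10A4, SLC9A9, SLC35E3, SLC7A3, SLC26A11 and SLC35E4. For SLC35E3 and SLC35E4, another probe set with a mean above 5 had titled groups that overlapped. With control and DMIOA+20(S), SLC35E3 gave 4.92 to 6.45 and 4.85 to 5.68 there. SLC35E4 gave 5.24 to 5.93 and 4.56 to 5.27.

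**Figure D4:**
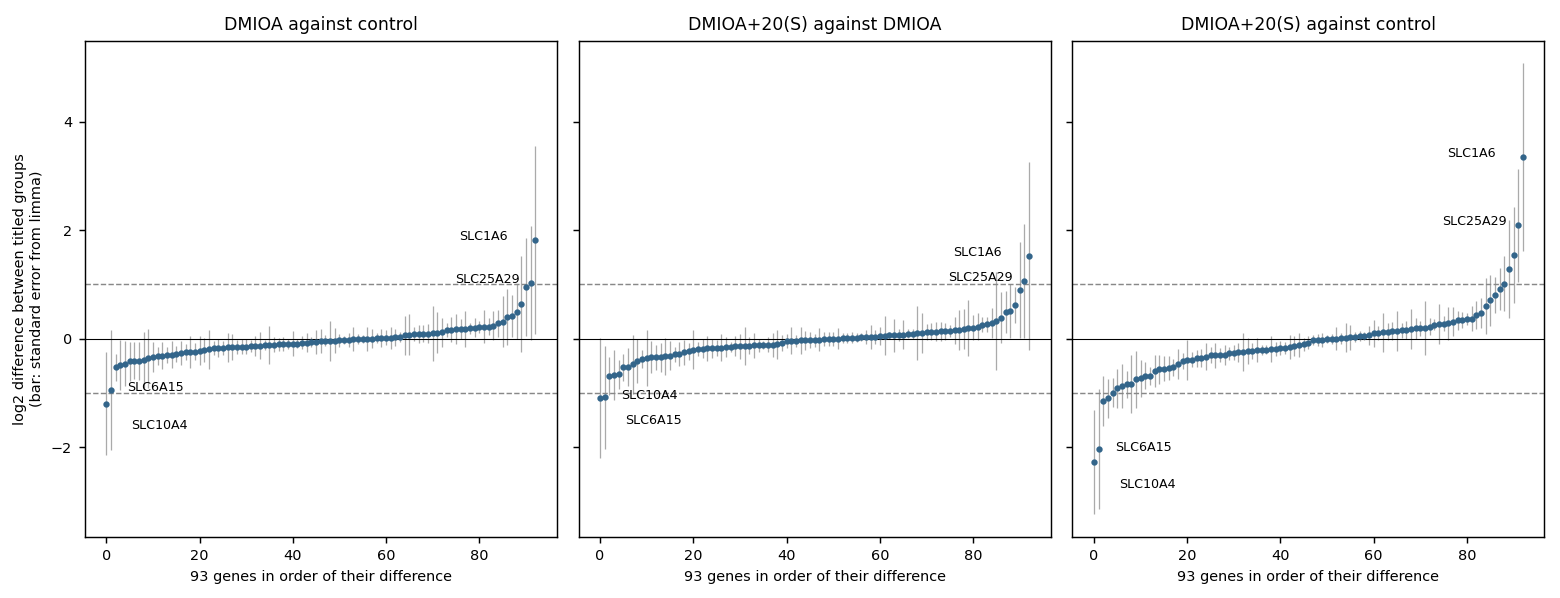
The log2 difference between titled groups for each of the 93 members, in order of size, with the standard error from limma as a bar and dashed lines at a 2-fold difference. SLC1A6 and SLC25A29 were at the upper end and SLC10A4 and SLC6A15 at the lower end in all 3 panels, with bars that are widest for these genes. The adjusted p was at least 0.492 for every member.

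Further probe sets of the same genes gave a check on single probes. Of the members, 17 had 1 probe set and 76 had several, and 46 other probe sets with a mean of at least 5 belonged to 36 members. For members set apart on set A by 0.5 there were 6 such probe sets, of which 3 had the same direction with such a gap (SLC1A6, SLC35E3 and SLC6A6), 2 had the same direction with a smaller gap (SLC39A13 with 0.49 and SLC37A3 with 0.24) and 1 was opposite. The opposite one was SLC30A5, whose dimmer probe set gave 5.42, 5.22 and 5.24, then 6.40, 6.52 and 6.43, then 6.46, 6.09 and 6.18, low where the brighter one was high. The direction of SLC30A5 therefore rests on which probe set is taken. SLC1A6 was low on set A on both of its further probe sets, the brighter of which gave 2.51, 2.35 and 3.25, then 6.81, 7.31 and 6.92, then 6.99, 7.46 and 7.55. The chosen probe sets of SLC1A6, SLC16A10, SLC37A3 and SLC41A2 are of a kind that may match more than 1 transcript, as are those of some other members. SLC16A10 was highest on set B with 2 further probe sets, at 7.16, 7.08 and 6.99 for the first and 6.58, 6.72 and 6.20 for the second. Those 2 lay between 5.00 and 5.77 on the other 6 arrays. For 0 members did another probe set of that level set A apart where the chosen one did not.

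**Figure D5:**
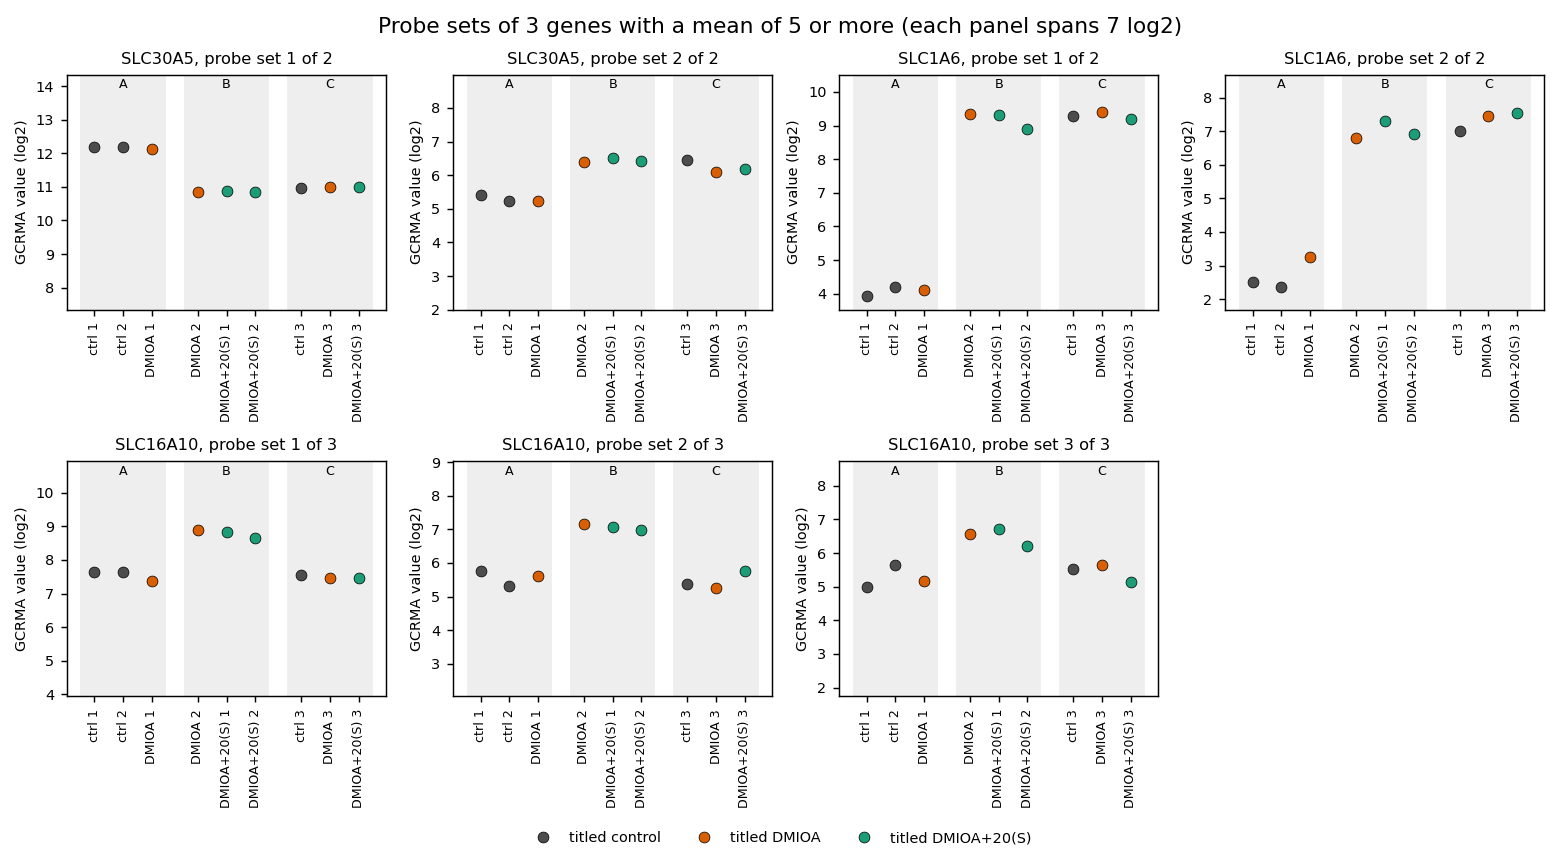
Log2 GCRMA values of every probe set with a mean of at least 5 for SLC30A5, SLC1A6 and SLC16A10, by array, with grey bands for sets A, B and C. Each panel has its own level but spans the same height. The 2 probe sets of SLC30A5 run in opposite directions, those of SLC1A6 share theirs, and all 3 of SLC16A10 are highest on set B.

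The study names or lists 22 solute carriers, all measured here, of which 12 are among the 93 genes. It gives SLC16A10 and SLC6A2 as over-expressed with DMIOA relative to DMIOA+20(S). By title, SLC16A10 was instead 0.39 log2 higher with DMIOA+20(S) (adjusted p = 0.977 from limma). The arrays DMIOA 2, DMIOA+20(S) 1 and DMIOA+20(S) 2, which make up set B, measured 8.64 to 8.90. DMIOA 1, DMIOA 3 and DMIOA+20(S) 3 measured 7.38 to 7.47, so the difference by title turns on which titles lie in set B. For both SLC16A10 and SLC6A2 the arrays titled DMIOA and DMIOA+20(S) overlapped. Several of the dimmer ones were just as uneven across arrays. SLCO2B1, an organic anion and steroid sulfate carrier, gave 2.47, 2.15 and 1.24, then 4.04, 4.45 and 3.93, then 5.04, 5.10 and 4.23, a mean of 3.63. SLC6A2, the noradrenaline transporter, gave 1.87, 1.88 and 1.40, then 5.06, 5.14 and 3.48, then 3.40, 3.69 and 3.40. SLC13A4, a sulfate carrier, gave 2.87, 2.71 and 2.68, then 6.50, 6.53 and 6.63, then 4.68, 4.79 and 4.68. All 3 were lowest on set A, and SLC13A4 was highest on set B with no overlap. SLC12A2, the sodium-potassium-chloride cotransporter just under the limit, was high on set A instead, with 6.16, 6.35 and 6.12 beside 3.90 to 4.93. SLC5A1, a sodium-glucose cotransporter, also lay above there, at 5.13, 4.80 and 4.71 beside 2.09 to 3.09. By title, SLC13A4 had the largest difference of these, 2.53 log2 for DMIOA+20(S) against control (standard error 1.0, adjusted p = 0.492 from limma). GCRMA draws dim probe sets toward a floor, so the size of differences at this level is uncertain and may be understated, which was not tested.

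Partner proteins and related pathways were looked at as fixed lists. Of 10 carrier partners and ion pumps 9 were measured and 6 reached a mean of 5. At a gap of 0.5, 1 stood apart on set A, ATP1B1, a subunit of the sodium pump, with 4.75, 4.74 and 4.17, then 8.07, 8.34 and 7.78, then 8.55, 8.55 and 8.62. The other measured pump subunit of that level, ATP1B3, lay between 11.21 and 11.86. Of 10 genes of the amino acid starvation response 7 were measured and 1 stood apart at that gap, CEBPG, a transcription factor that pairs with ATF4, with 10.58, 10.53 and 10.58 on set A and 9.77 to 9.87 elsewhere. ATF4 itself lay between 12.90 and 13.00, while its target ASNS, asparagine synthetase, gave 11.66, 11.54 and 11.17 on set A and 10.13 to 10.76 elsewhere. Counting any gap, 3 of the 7 lay above all other arrays on set A, CEBPG, ASNS and CHAC1, and 1 below, PHGDH, at a mean of 2.96. VLDLR tended lower on set A, with 3.29, 3.59 and 4.23 beside 4.21 to 5.64, so the list had no common direction. Of 8 genes of glucose use 5 were measured and 0 stood apart by 0.5. Limma called 0 genes of these lists in any comparison by title.

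The cells carried most of the listed markers of stroma. Of 14 markers of preadipocytes and stromal cells 11 reached a mean of 5, and PDGFRA, DLK1 and CEBPA lay near the floor at means of 1.54, 1.24 and 2.01. FABP4, the fatty acid binding protein of fat cells, gave 10.04, 10.23 and 10.22, then 13.60, 13.69 and 13.73, then 13.39, 13.39 and 13.42, with set A lowest. Of the 14 markers, 2 lay below on set A by a gap of 0.5, FABP4 and CEBPB, and 0 lay above. LUM, which codes for a matrix proteoglycan, was a little higher on set A (12.55, 12.47 and 12.60 beside 11.67 to 12.34), so the list had no common direction. Of 9 markers of macrophages and leukocytes, 1 reached a mean of 5. On set A 6 lay above all other arrays by 0.5 and 0 lay below, and the mean of the 9 on an array lay between 4.23 and 4.42 on set A, 2.77 and 2.88 on set B, and 2.73 and 2.99 on set C. NCF4, a subunit of the phagocyte oxidase, gave 6.59, 6.37 and 6.29 on set A and 1.31 to 1.84 elsewhere, and PTPRC, the leukocyte antigen CD45, gave 5.12, 5.16 and 5.37 beside 1.94 to 2.67. Summed over the 9 markers, titled groups overlapped, with 24.6 to 39.8 in control, 24.9 to 38.1 with DMIOA and 25.1 to 25.9 with DMIOA+20(S). Of 5 endothelial markers 1 reached a mean of 5, CDH5, a cadherin of vessel walls, with 7.14, 6.75 and 6.74 on set A and 3.94 to 6.15 elsewhere. The mean of the 5 lay between 3.24 and 3.40 on set A, 2.55 and 2.76 on set B, and 2.80 and 3.06 on set C. At any gap, 2 of the 5 lay above all other arrays on set A, CDH5 and VWF, and 1 below, TEK. VWF and TEK were near the floor at means of 1.87 and 1.66, and PECAM1 and KDR overlapped, so this list had no common direction either. The part of leukocytes or endothelial cells in the values of SLC6A15, SLC10A4, SLC9A9 and the other genes high on set A was not tested. Of 5 mesothelial markers 2 were measured and 1 reached a mean of 5, KRT7, a keratin, with 11.07 to 11.89 over the 9 arrays. Of the measured markers of skeletal muscle and of red cells 0 reached a mean of 5.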

How the data were processed

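RNA of the 9 cultures was hybridized to Affymetrix chicken arrays. The authors corrected, normalized and summarized the scans by GCRMA, run in FlexArray (its version is not stated in the sources used here), and the deposited values are 1 log2 value per probe set. They were used as deposited. GCRMA draws dim probe sets toward a floor. Array medians lay between 2.11 and 2.14. The table holds 38535 probe sets, and 96 control probe sets were left out. Of the 38439 tested, 27168 have 1 gene symbol in the platform annotation, 177 several and 11094 none. Those with 1 symbol that starts with SLC number 690, and 5 more with several symbols were not used. The annotated gene identifier of all 93 members was found in the RefSeq gene table, with the symbol unchanged. Columns of the authors' own fold changes in the paper's supplementary files were not used.

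Groups were taken from the titles. All 9 arrays entered 1 model without a block (lmFit and eBayes of limma 3.58.1, under R 4.3.3). Benjamini-Hochberg adjustment ran over all probe sets, and a call needed both an adjusted p under 0.05 and a log2 difference of 1 or more in size. The fitting step was also tested on simulated data. Sets A, B and C were given no test. Genes named are those the paper names or lists, the 12 brightest, the 12 with the widest and the 5 with the narrowest range, the 4 largest differences each way per comparison, up to 5 with the widest gap per pair of sets, the 3 on either side of the limit, and examples by cargo. Others were chosen after their values were seen. Members, lists and sets were chosen with earlier results of these data known. Alternatives were a replicate block, subsets of arrays, each array left out in turn, the methods' t-test, other normalizations and weights, a filter on dim probe sets, the mean over a gene's probe sets, and other limits of level and gap. Tables were written in Python 3.11.15 through pandas 2.3.3 and numpy 2.4.6, and plots drawn in matplotlib 3.10.9.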

Additional observations from a re-analysis of the deposited data

How the results depend on the processing

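By title, 0 of the 93 genes were called in any comparison under each alternative, the replicate block included (0, 0 and 0), with each array left out (0 to 0), and with the methods' t-test after adjustment. The replicate number did not pair the arrays as a whole, since deviations of same-numbered arrays correlated from -0.56 to 0.70, but the 3 pairs numbered 3, which make up set C, were positive at 0.70, 0.08 and 0.20. The 2 probe sets called for DMIOA+20(S) against control stayed 2 with median centring and with array weights, were 1 with quantile normalization and 0 otherwise, the replicate block included. Single arrays turned the sign of some differences. Without DMIOA 2, SLC16A10 in DMIOA against control was -0.18 (range over arrays left out -0.18 to 0.58). Without DMIOA 1, DMIOA+20(S) against DMIOA gave -0.22 for SLC1A6 (-0.22 to 2.42), 0.10 for SLC41A2 (-0.71 to 0.10), -0.13 for SLC43A2 (-0.13 to 1.48) and -0.50 for SLC6A6 (-0.50 to 0.88). The cause was not tested.

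Averaging a gene over all its probe sets left 59 members in place of 93, with 4 genes where set A was above B by 1, 3 where A was above C and 0 where B was above C. Gaps of 0.5 gave 12 for A above B, 14 for A above C, 14 for C above A and 1 for C above B. Gaps of 2 gave 2, 2 for A above C, 3 for B above A and 0 for B above C. A limit on the mean of 6 gave 4 and 3 for A above B and C, and a limit of 4 gave 2 for B above C. No share over all genes is given beside these counts, so nothing particular to solute carriers is read from them. Set A was apart from both others by 2 for 2 members above (2.15%, beside 0.999% of all) and 2 below (2.15%, beside 1.61%). The arrays DMIOA 1, DMIOA+20(S) 2 and DMIOA+20(S) 3 were left out together, chosen after seeing the values, and counts stayed within 1 of those given. With fewer arrays a gap can only stay or widen, so for the same genes these counts could not fall. There are 3 arrays a group, and signal near the GCRMA floor may understate differences. A p that missed the threshold does not show that a carrier did not change.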
